A study of Sus scrofa with 8 samples.

Results

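The liver makes most of the proteins of blood clotting, and 8 genes of fibrinogen and the coagulation factors were followed here in porcine liver at 2 ages. The 10 genes asked for were *FGA*, *FGB*, *FGG*, *F2*, *F5*, *F9*, *F10*, *F11*, *PLG* and *PROC*, and a gene was taken when its pig symbol had an Ensembl identifier among the 21607 mRNAs of the data. No identifier was paired with *FGA*, and the one paired with *F11* was not among those mRNAs, so both were dropped and are not analysed here. The rule used no measured value. Liver tissue came from 4 unrelated Yana sows, an indigenous Chinese breed. The young livers were those of 2 sows aged 180 days and the old livers those of 2 sows aged 8 years. Each liver gave 1 rRNA-depleted RNA-seq library. Per the study, the young sows had never farrowed and the old sows were culled after many litters, so age and reproductive history cannot be told apart. With 2 animals per age, p-values rest on a small estimate of the spread between animals.

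Fibrinogen is built from pairs of alpha, beta and gamma chains, encoded by *FGA*, *FGB* and *FGG*, and thrombin cuts it so that it polymerises into the fibrin of a clot. Thrombin is made from prothrombin (*F2*) by activated factor X (*F10*) with factor V (*F5*) as its cofactor, and factor X is in turn activated by factor IX (*F9*). Protein C (*PROC*), once activated, destroys factor V and slows clotting, while plasmin, made from plasminogen (*PLG*), dissolves fibrin. Hepatocytes secrete these proteins into plasma, and fibrinogen is an acute phase protein whose genes respond to interleukin-6.

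Values are CPM, counts of reads scaled to a common library total, and whole reads were recovered from them. The mRNAs held 37555696 and 37125093 reads in young replicates 1 and 2 and 22482241 and 24866406 in old replicates 1 and 2. Gene length does not enter CPM, so the level of a gene was compared between livers and not with that of another gene. The label of liver tissue was checked on 12 hepatocyte markers, 11 of which were among the mRNAs and all of these above 0 in every library. Their summed value was 80407 and 92497 CPM in the young livers and 51320 and 62335 CPM in the old livers, so the age groups did not overlap. Old replicate 1 stood apart from the other livers. The 9 interferon-stimulated genes that could be followed, of a list of 14, summed to 1525 CPM there and to between 13.98 and 26.4 CPM in the other 3 livers. The differences of the 8 genes are therefore given also without it, alone or in the range over libraries left out.

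None of the 8 genes passed the threshold between old and young livers, an adjusted p-value under 0.05 in limma with an absolute log2 difference above 1. Among all 16898 mRNAs tested, those above 0 in at least 2 libraries, 0.00% passed in either direction. The adjusted p-values of the 8 genes lay between 0.264 and 0.969 in limma. At an unadjusted p-value under 0.05 in limma *F2* was the 1 gene higher in old livers and *F9* the 1 gene lower, beside 6.78% and 8.93% of all mRNAs in these directions and 15.7% in either. Which genes were under that level changed with the processing. Both old livers were above both young livers for 2 genes, *F2* and *F10*, and below them for 1 gene, *F9*, which compares with 24.4% and 25.0% of all mRNAs. The age groups overlapped for the other 5 genes. The share of genes without overlap, 3 of 8, was thus no higher than the 49.3% over all mRNAs. The median log2 difference between the age groups was 0.00054 over the 8 genes and -0.02 over all mRNAs tested.

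**Figure D1:**
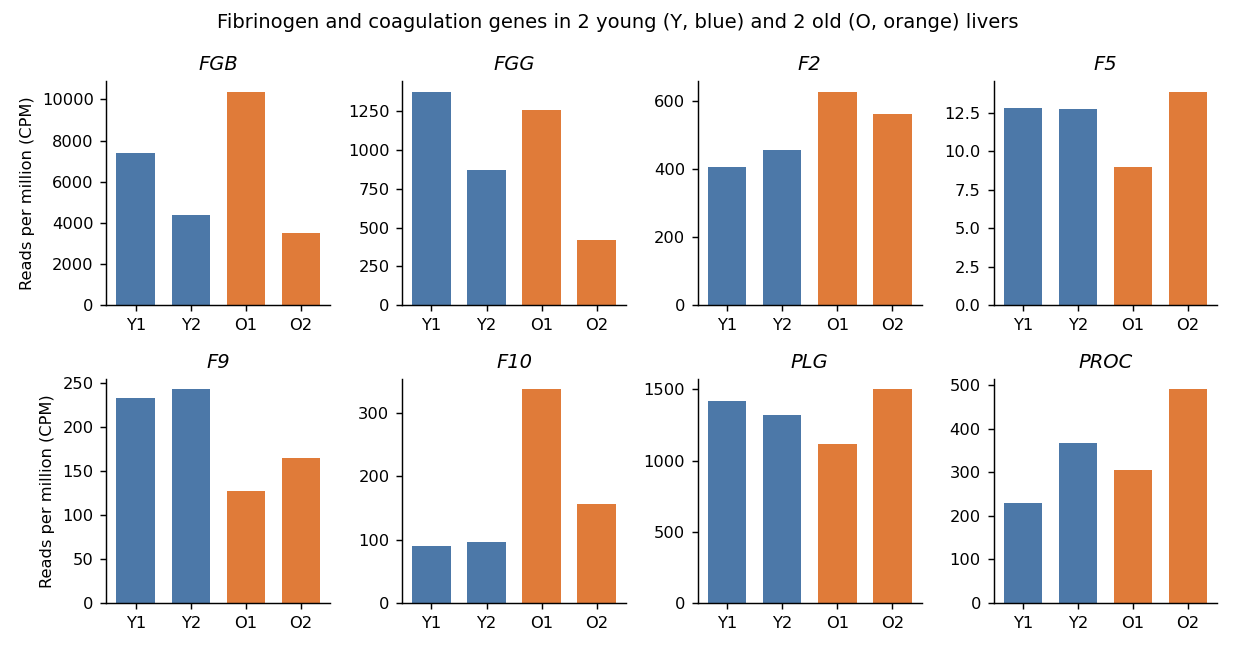
CPM (vertical axis, linear from 0) of the 8 genes in young replicates 1 and 2 (Y1, Y2, blue) and old replicates 1 and 2 (O1, O2, orange), 1 bar per library. For *F2* and *F10* both orange bars are above both blue bars, for *F9* both are below, and for *FGB* the old livers are the highest (10375) and the lowest (3494) of the 4.

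Among the fibrinogen genes, *FGB* (ENSSSCG00000008997), which encodes the beta chain, measured 7407 and 4366 CPM in young sows against 10375 and 3494 CPM in old sows. Old replicate 1 was above both young livers and old replicate 2 below both, so the age groups overlapped. The log2 difference between old and young livers was 0.08 with a 95% interval from -2.02 to 2.19 (limma, adjusted p = 0.969). It was -0.70 without old replicate 1 and 0.87 without old replicate 2, and -0.30 without young replicate 2. The 2.97-fold range between the old livers was thus wider than the difference in mean between the ages.

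*FGG* (ENSSSCG00000024314), which encodes the gamma chain, measured 1376 and 874 CPM in young sows against 1257 and 418 CPM in old sows. Old replicate 1 lay between the young livers and old replicate 2 below both. The log2 difference was -0.60 with a 95% interval from -2.66 to 1.47 (limma, adjusted p = 0.735), and it was -1.39 without old replicate 1 and 0.20 without old replicate 2.

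The replicates differed in the same order for both chains. In either age group, replicate 1 was above replicate 2 for both genes, by 1.70-fold for *FGB* and 1.57-fold for *FGG* in the young livers and by 2.97-fold and 3.01-fold in the old livers. Among 413 mRNAs with a mean of at least 100 CPM, the fold between the old livers had a median of 1.48, and it was larger than that of *FGB* for 15.0% and than that of *FGG* for 14.3%. Together, both chains took 2.15% and 1.22% of the mRNA reads of the young livers and 3.18% and 1.13% of those of the old livers. The sum of the chains overlapped between the ages, and their ratio did not. For each *FGG* read there were 5.38 and 5.00 *FGB* reads in young sows against 8.25 and 8.35 in old sows, 1.60-fold more on average. This ratio does not depend on the scaling of a library, and its age groups were 5.19 ± 0.273 and 8.30 ± 0.0717 (SD, n = 2 each). It was 1 of 14 ratios without overlap among the 28 that the 8 genes form. The share among ratios of other gene pairs was not computed, and 49.3% of single mRNAs were without overlap. The exact permutation test of 2 against 2 livers cannot give a two-sided p below 0.333, the value it takes for any quantity without overlap. RefSeq orders the fibrinogen genes side by side as *FGG*, *FGA* and *FGB* in the Sscrofa11.1 assembly, which is not the build the authors aligned to.

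**Figure D2:**
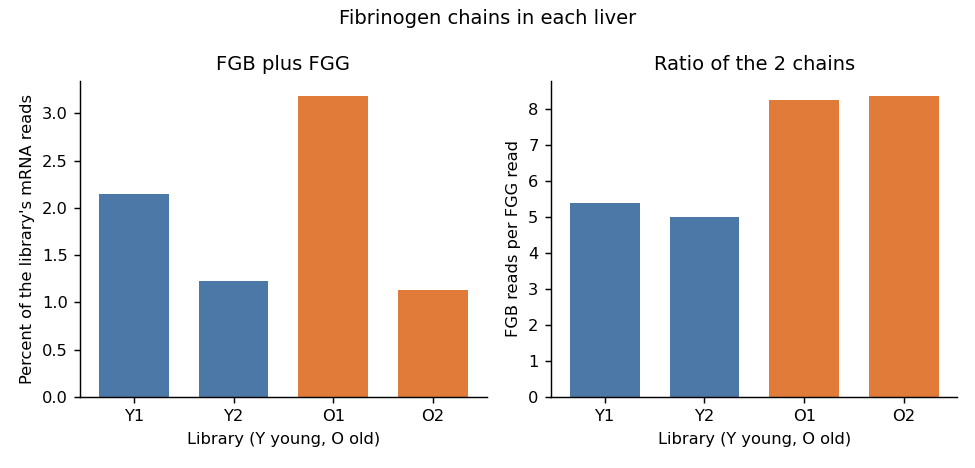
Left, the percent of a library's mRNA reads that fell on *FGB* plus *FGG*, and right, the *FGB* reads per *FGG* read, both on linear axes from 0 with 1 bar per library (Y young, O old). The left bars of the old livers are the highest (3.18%) and the lowest (1.13%), whereas on the right both old livers (8.25 and 8.35) are above both young livers (5.38 and 5.00).

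Fibrinogen belongs to the acute phase response, and 5 of a list of 10 genes of that response and of interleukin-6 signalling could be followed. None passed the threshold in limma, with 1 of the 5 lower at an unadjusted p-value under 0.05 and none higher, beside 8.93% and 6.78% of all mRNAs. *ITIH4*, an acute phase protein of the pig, was chosen for this comparison after its values were seen, and it measured 864 and 462 CPM in young sows against 2526 and 451 CPM in old sows. Like *FGB*, it was highest in old replicate 1 and lowest in old replicate 2, with a 5.60-fold range between them. The other genes followed in that list did not have this order. *IL6R* was highest in old replicate 2 (12.4 CPM), and *STAT3* and *IL6ST* were highest in young replicate 1 (39.6 and 21.3 CPM). The gene of C-reactive protein, *CRP* (ENSSSCG00000006403), was like both fibrinogen chains in the order of its replicates but not between the ages. Replicate 1 was above replicate 2 by 1.66-fold in the young livers and by 3.09-fold in the old livers. The share of all mRNAs with that order was not computed. *CRP* measured 360 and 217 CPM in young sows against 36.7 and 11.9 CPM in old sows, and both old livers were below both young livers. The log2 difference of *CRP* was -3.67 (standard error 0.68, limma, adjusted p = 0.228), and leaving out any 1 library kept it between -4.45 and -2.90. On whole reads *CRP* met the threshold in the exact test of edgeR with a log2 fold change of -3.38 (adjusted p = 0.00378). In that test 0.462% of all mRNAs passed as lower and 2.68% as higher. The quasi-likelihood test of edgeR on the same reads also gave -3.38, but with an adjusted p of 0.277. RefSeq lists *CRP* as a pair of neighbouring entries in the Sscrofa11.1 assembly, which is not the build the authors aligned to. The entries were not compared in sequence, and whether reads are split between them was not tested.

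Prothrombin, *F2* (ENSSSCG00000013252), measured 406 and 456 CPM in young sows against 628 and 562 CPM in old sows. Both old livers were above both young livers, with means of 595 ± 47.0 and 431 ± 35.4 CPM (SD, n = 2 each). The log2 difference of 0.46 (standard error 0.14) had an unadjusted p of 0.0401 and an adjusted p of 0.294 in limma. It stayed between 0.38 and 0.55 with any 1 library left out.

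Factor X, *F10* (ENSSSCG00000009558), had the largest difference of the 8 genes. It measured 89.5 and 96.6 CPM in young sows (8220 and 8358 reads) against 338 and 157 CPM in old sows (20770 and 11288 reads), 2.66-fold higher on average. The young livers were close to each other, and both old livers were above them, but old replicate 1 was 2.15-fold above old replicate 2. The log2 difference was 1.30 with a 95% interval from -0.05 to 2.65 (limma, adjusted p = 0.330), and it was 0.75 without old replicate 1. The exact test of edgeR gave 1.60 with an adjusted p of 0.177. Factor VII (*F7*), the gene next to *F10* in the order of RefSeq, measured 8.65 and 10.9 CPM in young sows against 10.7 and 16.8 CPM in old sows. Its age groups overlapped, and old replicate 1, the highest liver for *F10*, lay between the young livers for *F7*.

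Factor IX, *F9* (ENSSSCG00000012711), an X-linked gene whose defects cause haemophilia B, went the other way. It measured 232 and 242 CPM in young sows against 127 and 164 CPM in old sows. Both old livers were below both young livers, with means of 145 ± 26.5 and 237 ± 7.25 CPM (SD, n = 2 each). The log2 difference was -0.71 (standard error 0.18), with an unadjusted p of 0.0252 and an adjusted p of 0.264 in limma. Leaving out any 1 library kept it between -0.90 and -0.53.

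Factor V, *F5* (ENSSSCG00000006289), the cofactor of factor X, had the fewest reads of the 8 genes, between 551 and 1179 per library. It measured 12.8 and 12.7 CPM in young sows against 8.95 and 13.9 CPM in old sows. Old replicate 1 was below both young livers and old replicate 2 above both. Its log2 difference was -0.18 with a 95% interval from -0.94 to 0.58 (limma, adjusted p = 0.786), and it was 0.11 without old replicate 1.

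Plasminogen (*PLG*, ENSSSCG00000004038) varied least of the 8 genes between the 4 livers, with a 1.35-fold range. It measured 1419 and 1319 CPM in young sows against 1115 and 1500.0 CPM in old sows. The old livers lay on either side of the young livers. The log2 difference was -0.08 with a 95% interval from -0.70 to 0.54 (limma, adjusted p = 0.894), and it was 0.13 without old replicate 1.

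Protein C (*PROC*, ENSSSCG00000023693), the anticoagulant among the 8 genes, measured 229 and 368 CPM in young sows against 305 and 491 CPM in old sows. The age groups overlapped, as old replicate 1 lay between the young livers. The log2 difference was 0.41 with a 95% interval from -0.79 to 1.61 (limma, adjusted p = 0.684). It was 0.76 without old replicate 1, 0.07 without old replicate 2 and also 0.07 without young replicate 1.

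**Figure D3:**
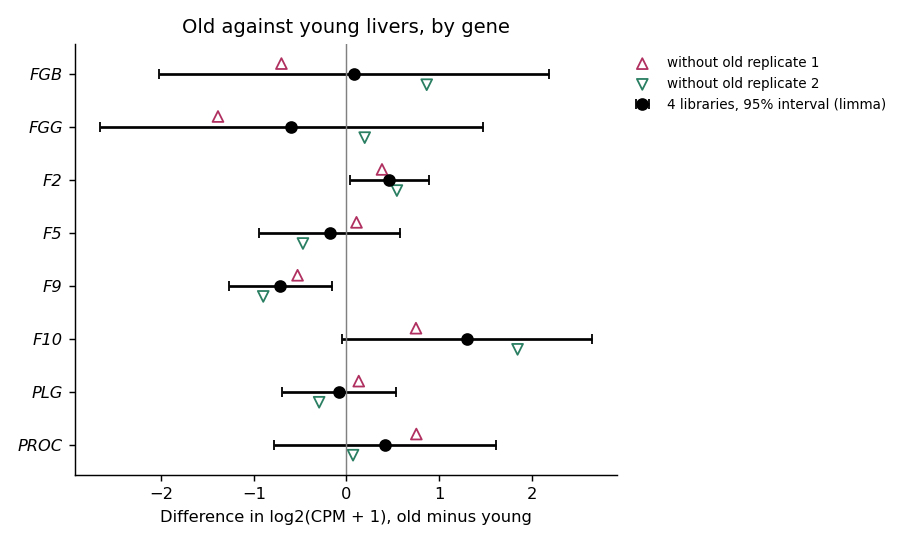
Difference in log2(CPM + 1) between old and young livers for each gene, with its 95% interval from limma over all 4 libraries (black), and the same difference without old replicate 1 (triangles pointing up) or without old replicate 2 (triangles pointing down). The intervals of *F2* and *F9* do not reach 0 before adjustment, and the 2 triangles lie on opposite sides of 0 for *FGB*, *FGG*, *F5* and *PLG*.

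The old livers were not alike in these genes. Of the 8 genes, old replicate 1 was above both young livers for 3, below both for 3 and between them for 2, and old replicate 2 was above for 5 and below for 3. The direction was the same in both old livers for *F2*, *F10* and *F9* alone. Within a liver, the reads of 1 gene per read of another are free of the scaling of the library. Pairs that share a gene are not independent, and the pairs named next were chosen from the 14 without overlap after their values were seen. For each *F9* read there were 1.75 and 1.88 *F2* reads in young sows against 4.96 and 3.42 in old sows. For each *F10* read there were 2.59 and 2.51 *F9* reads in young sows against 0.375 and 1.04 in old sows. The ratio of *F2* to *F9* reads was therefore 2.31-fold higher in old livers, and that of *F9* to *F10* reads was 0.278 times that in young livers. With old replicate 2 as the only old liver, these values were 1.89 and 0.409. As *F2* and *F10* were higher and *F9* lower in both old livers, neither ratio could overlap between the ages. Both restate the values of the single genes.

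The sum of the hepatocyte markers was lower in both old livers, and the values of the coagulation genes were set against them. In bulk tissue, possible reasons for the lower sum, such as fewer hepatocytes or less RNA per hepatocyte, cannot be told apart. All mRNAs together held 408898 and 428910 CPM in the young livers and 365330 and 346173 CPM in the old livers. Scaled to the summed hepatocyte markers of each library, the 8 genes had a median log2 difference of 0.61, where the median of all mRNAs moved by 0.21. On that scale *F2* was 1.07 and *F10* 1.90 higher in old livers on the log2 scale, *PROC* was 1.0197 and *FGB* 0.69 higher, *F9* differed by -0.11, and *FGG*, *F5* and *PLG* changed sign to 0.01, 0.38 and 0.53. None passed the threshold on that scale, with a lowest adjusted p-value of 0.203 in limma. *ALB* and *APOC3* hold most of that sum, and 4 of the 11 markers were lower without overlap and none higher, where 25.0% of all mRNAs were lower. The age groups overlapped for the other 7 markers, among them *APOA1*, *ASGR1* and *ASGR2*.

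**Figure D4:**
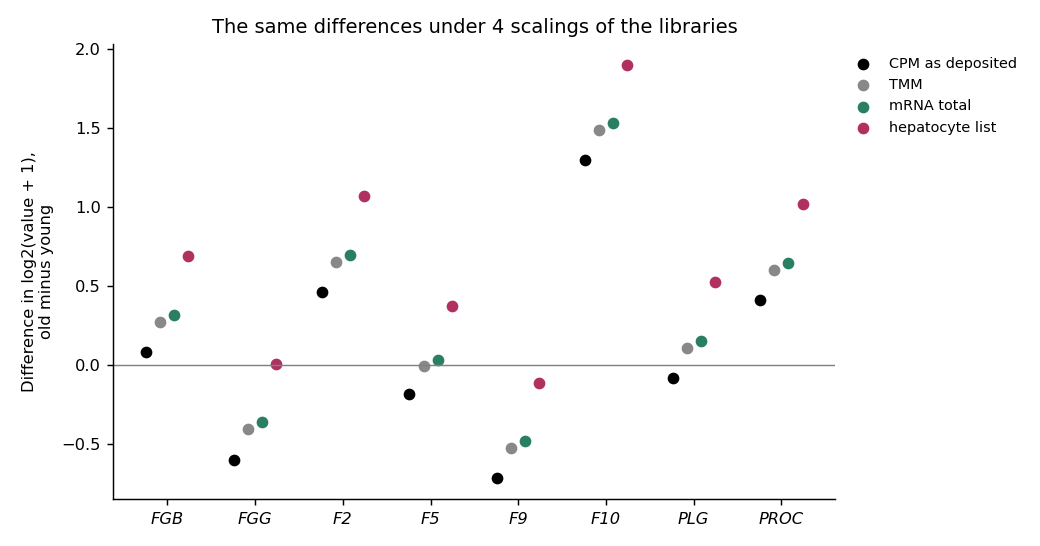
Difference in log2(value + 1) between old and young livers (vertical axis) for each gene, with values as deposited, scaled by TMM (trimmed mean of M values), scaled to the mRNA total and scaled to the summed hepatocyte markers. Every gene moves up from the first to the last scaling, *F9* stays below 0 under all 4, and *FGG*, *F5* and *PLG* cross 0.

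Other genes of clotting were taken from 4 lists, with 22 of their 30 genes among the mRNAs, and none of the 22 passed the threshold in limma. Of the other clotting factors and cofactors, 7 of 9 could be followed, and 2 were lower and none higher at an unadjusted p-value under 0.05 in limma, beside 8.93% and 6.78% of all mRNAs. Without overlap, 2 were higher and 2 lower, beside 24.4% and 25.0%. *F13B*, the carrier subunit of factor XIII, which cross-links fibrin, measured 37.3 and 37.4 CPM in young sows against 9.90 and 14.2 CPM in old sows. Both old livers were below both young livers, with a log2 difference of -1.58 (standard error 0.21, limma, adjusted p = 0.213). *KNG1*, which encodes the kininogen of the contact phase, measured 372 and 432 CPM in young sows against 143 and 242 CPM in old sows, a log2 difference of -1.10 (standard error 0.32, limma, adjusted p = 0.288). Scaled to the hepatocyte markers, the differences were -1.0007 for *F13B* and -0.50 for *KNG1*. *F8*, whose product is the cofactor of factor IX, measured 1.93 and 5.88 CPM in young sows against 6.55 and 6.32 CPM in old sows. Factor VIII is made mainly by endothelial cells, and 4 endothelial markers of a list of 8 summed to 31.8 and 29.3 CPM in the young livers and to 31.7 and 38.6 CPM in the old livers. Of these 4 markers, 2 were higher and 1 was lower in old livers without overlap, beside 24.4% and 25.0% of all mRNAs. The part of endothelial cells in the value of *F8* was not tested.

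Of 9 anticoagulant genes, 6 could be followed, and at an unadjusted p-value under 0.05 in limma 1 was lower and none was higher, where 8.93% and 6.78% of all mRNAs were. Without overlap, 1 was higher and 2 were lower, beside 24.4% and 25.0% of all mRNAs. *PROS1*, which encodes protein S, the cofactor of protein C, measured 78.5 and 67.7 CPM in young sows against 37.0 and 48.1 CPM in old sows (log2 difference -0.78, standard error 0.20, limma, adjusted p = 0.264). The difference of *PROS1* was -0.18 when scaled to the hepatocyte markers. In a pair chosen after its values were seen, there were for each *PROS1* read 2.91 and 5.44 *PROC* reads in young sows against 8.24 and 10.202 in old sows. Antithrombin (*SERPINC1*), the main inhibitor of thrombin and factor X, measured 812 and 944 CPM in young sows against 619 and 705 CPM in old sows. The log2 difference of *SERPINC1* was -0.41 (standard error 0.16, limma, adjusted p = 0.361), and it was 0.20 when scaled to the hepatocyte markers. Also chosen after the values were seen, the pair of *F2* and *SERPINC1* had 0.500 and 0.483 *F2* reads per *SERPINC1* read in young sows against 1.01 and 0.797 in old sows. With *F2* higher and *SERPINC1* lower in both old livers, this ratio could not overlap between the ages. *PROCR*, the receptor of protein C, was near 1 CPM and apart only in old replicate 1, at 2.71 CPM beside 0.544 to 0.682 CPM in the other livers.

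Of 7 genes of fibrinolysis, 5 could be followed, and none passed the threshold in limma. Counts by direction are not reported here for this list, and the gene given next does not stand for its direction. *CPB2*, the carboxypeptidase that protects fibrin from plasmin, measured 362 and 441 CPM in young sows against 226 and 337 CPM in old sows, without overlap, and its log2 difference of -0.53 (limma, adjusted p = 0.464) became 0.08 when scaled to the hepatocyte markers.

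The vitamin K cycle carboxylates *F2*, *F9*, *F10* and *PROC* products before secretion, and 4 of 5 genes of carboxylation and export were followed. As deposited, all 4 were lower in both old livers than in both young livers, as were 25.0% of all mRNAs. At an unadjusted p-value under 0.05 in limma 2 of them were lower and none higher, where 8.93% and 6.78% of all mRNAs were. *MCFD2*, part of the cargo receptor of factors V and VIII, measured 58.6 and 46.9 CPM in young sows against 26.1 and 31.9 CPM in old sows (log2 difference -0.84, standard error 0.20, limma, adjusted p = 0.254). *LMAN1*, the other part of that receptor, measured 37.4 and 31.7 CPM in young sows against 29.1 and 17.8 CPM in old sows, and its log2 difference of -0.58 was 0.01 when scaled to the hepatocyte markers. *GGCX*, the carboxylase itself, measured 7.23 and 5.27 CPM in young sows against 3.32 and 4.86 CPM in old sows, and *VKORC1L1*, a vitamin K epoxide reductase, measured 4.09 and 3.13 CPM against 2.05 and 1.95 CPM. Scaled to the hepatocyte markers, the log2 differences were -0.25 for *MCFD2*, -0.17 for *VKORC1L1* (-0.61 as deposited) and -0.014 for *GGCX* (-0.51 as deposited).

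**Figure D5:**
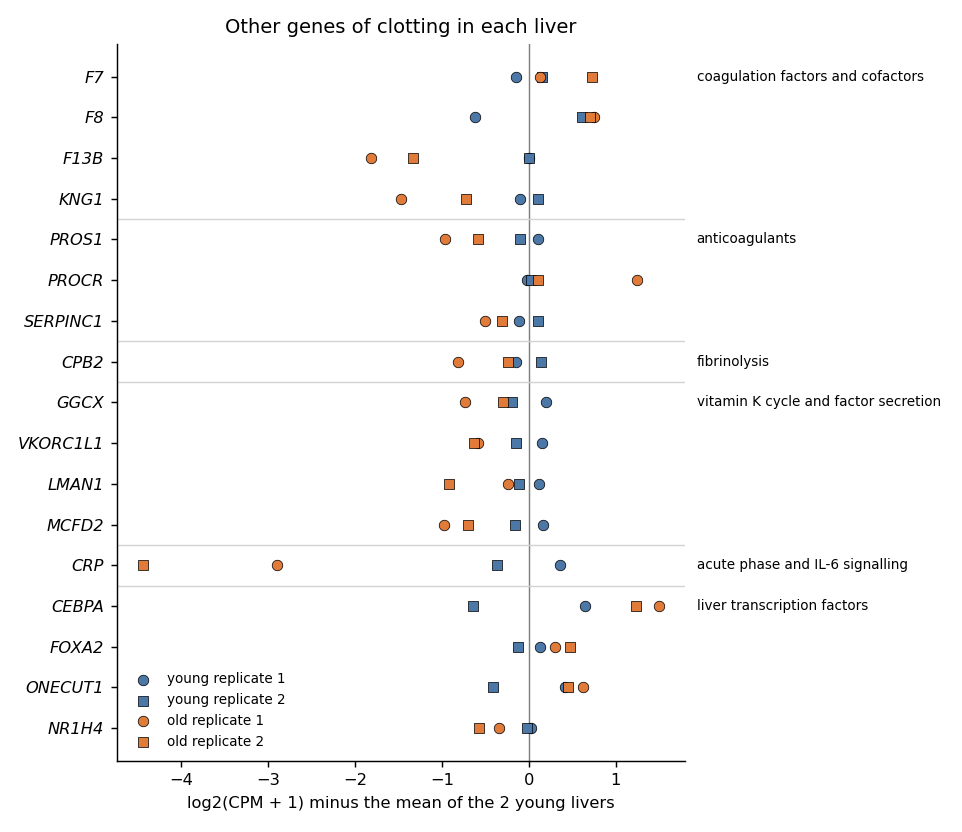
log2(CPM + 1) of other named genes in each library (blue young, orange old; circles replicate 1, squares replicate 2), minus the mean of the young livers, grouped by list. Both orange points lie left of both blue points for all 4 genes of the vitamin K cycle and secretion and for *F13B*, *KNG1*, *PROS1*, *SERPINC1*, *CPB2*, *CRP* and *NR1H4*, with values as deposited. Scaled to the hepatocyte markers, the differences of *SERPINC1*, *CPB2*, *LMAN1* and *NR1H4* change sign.

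Transcription factors that drive plasma protein genes in hepatocytes formed the last list, with 9 of 10 genes followed. Of these, 5 were higher and 1 lower without overlap, beside 24.4% and 25.0% of all mRNAs. At an unadjusted p-value under 0.05 in limma none was higher and 1 was lower, beside 6.78% and 8.93%. None passed the threshold. *CEBPA* measured 1.45 and 0 CPM in young sows against 3.43 and 2.69 CPM in old sows, and at 0 the limit that 3 reads allow is 0.0347 CPM, for counting error only. *ONECUT1* measured 5.10 and 2.43 CPM in young sows against 6.05 and 5.26 CPM in old sows, and *FOXA2* 2.73 and 2.13 CPM against 3.20 and 3.75 CPM. *NR1H4*, the bile acid receptor FXR, which is known to induce fibrinogen genes, measured 22.0 and 21.3 CPM in young sows against 16.8 and 14.2 CPM in old sows. The log2 difference of *NR1H4* was -0.46 (standard error 0.14, limma, adjusted p = 0.293), and 0.12 when scaled to the hepatocyte markers.

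Markers of other cell types were read beside these results. The summed value of 5 of 7 macrophage markers was 52.3 and 50.7 CPM in the young livers and 87.7 and 134 CPM in the old livers. That of 4 of 6 T and NK cell markers was 5.49 and 7.22 CPM against 16.4 and 9.29 CPM, and neither sum overlapped between the ages. Within these lists 3 of 5 and 3 of 4 markers were higher without overlap, beside 24.4% of all mRNAs. The age groups overlapped for *CSF1R*, *LYZ* and *CD3D*. The erythroid sum (4 of 6 markers) was lower without overlap, 622 and 429 CPM in young and 308 and 407 CPM in old livers. *HBB* held most of that sum, with 617 and 425 CPM in young and 302 and 402 CPM in old livers. Of the 4 erythroid markers, 1 was higher and 2 were lower without overlap, beside 24.4% and 25.0% of all mRNAs. Sums for cholangiocytes, stellate cells and fibroblasts, B and plasma cells and skeletal muscle overlapped. Of 7 megakaryocyte and platelet markers, 2 were found, and they summed to between 0.958 and 1.80 CPM. The part of these cells in the values of the coagulation genes was not tested.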

How the data were processed

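RNA-seq values of 4 livers were used. Per the labels and methods, the authors mapped cleaned reads on Sscrofa10.2 using TopHat2 2.0.14, assembled transcripts with StringTie 1.2.3 and estimated values named TPM with Salmon 0.6.0. As deposited, 100% of the mRNA values above 0 were, within 0.1 read, whole multiples of a constant of each library, so they are CPM of a library total that is not stated, and whole reads were recovered by division. Replicates were not pooled. Depth, 22482241 to 37555696 mRNA reads, limits counting error only.

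Identifiers were joined to symbols, which 11654 of 21607 have. limma 3.58.1 in R 4.3.3 was fitted on log2(CPM + 1) over all mRNAs above 0 in 2 or more libraries, and p-values were adjusted over these by Benjamini-Hochberg. Differences of genes with low values are understated on this scale. The exact test, which the authors used, and the quasi-likelihood test of edgeR 4.0.16 were run on whole reads with TMM scaling. Python 3.11.15 was used for summaries. Named genes were the 8 genes, in each list the up to 4 genes of largest difference without overlap and with a mean of at least 1 CPM, and a few added by name, among them *F7*, *SERPINC1* and *KNG1*. A gene that this rule names is not reported here. The genes and lists were chosen with earlier results of these data known. *FGA* had no identifier paired with its symbol and may be among the mRNAs without a symbol, so the fibrinogen sum is over *FGB* and *FGG*. Values of lncRNAs, circRNAs and miRNAs, and gene sequences, were not used here.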

Additional observations from a re-analysis of the deposited data

How the results depend on the processing

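None of the 8 genes passed the threshold under any of the 14 alternatives. Over all mRNAs, 2 were called with a mean of at least 1 CPM and 531 (453 higher) by the exact test of edgeR, which also called 1 gene of the pathway lists, *CRP*, and 0 elsewhere (2654 at an unadjusted p under 0.05 in limma and 2486 by the quasi-likelihood test). The median log2 difference of the 8 genes was 0.00054 and moved to 0.61 scaled to the hepatocyte list, 0.24 scaled to the mRNA total (chosen after seeing the data) and 0.28 in both edgeR tests, which shifted the median of all mRNAs by 0.21, 0.07 and 0.13. With 1 library left out it lay between -0.16 and 0.13. Which of the 8 genes had an unadjusted p-value under 0.05 also changed, with no library left out. They were *F2* and *F9* in the main fit in limma, and none with 0.1 added to CPM in place of 1. With TMM or scaled to the mRNA total they were *F2* and *F10*, and scaled to the hepatocyte list *F2*, *F10* and *PROC*. *F10* alone was under that level in limma with a mean of at least 1 CPM and in both edgeR tests. The log2 ratio of the mean of *FGB* plus *FGG* was 0.15. With 1 library left out it ranged from -0.84 (without old replicate 1) to 0.73 (without old replicate 2), and it was 0.80 scaled to the hepatocyte list.

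The sign changed in 10 of 80 values of the 8 genes under other processing. Scaled to the hepatocyte list these were *FGG* 0.012, *F5* 0.38 and *PLG* 0.53, and outside the 8 genes *SERPINC1* 0.20, *CPB2* 0.076, *LMAN1* 0.012 and *NR1H4* 0.12. Scaled to the mRNA total they were *F5* 0.037 and *PLG* 0.15, with TMM *PLG* 0.11, and in both edgeR tests *F5* 0.028 and *PLG* 0.13. With 1 library left out, *FGB* ranged from -0.70 to 0.87, *FGG* from -1.39 to 0.20, *F5* from -0.47 to 0.11 and *PLG* from -0.30 to 0.13. Both edgeR tests also scaled the libraries by TMM, and limma with TMM gave -0.0049 for *F5*. The changes in the edgeR tests are thus not of the test alone, and the part of the scaling was not tested. The replicate numbers are shared only in name (r = 0.102 between same-numbered deviations over 9798 mRNAs), and with the replicate block 0 mRNAs and 0 of the 8 genes passed, with a median of 0.00054.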
